A study of Mus musculus with 6 samples.

Results

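Transcripts of the proteasome, the protease that degrades ubiquitin-tagged proteins, were compared between the cerebellum of wild-type and of daDREAM transgenic mice. The members are all genes with a symbol of the families Psma to Psmg followed by a number, leaving out Psmb8 and Psmb9, that had at least 1 probe set annotated to that gene alone. They came to 45 genes with 97 probe sets, out of 18193 genes and 45037 probe sets tested. Each gene was read from its brightest probe set, judged by the mean of the 6 arrays. Psme2 was not among them, since its probe set is also annotated to Psme2b.

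The groups were 3 cerebella of wild-type mice and 3 of mice that carry daDREAM, each hybridised to its own Affymetrix Mouse Genome 430 2.0 array as an independent biological replicate. DREAM, encoded by Kcnip3, is a calcium-sensing repressor of transcription, and daDREAM is a dominant active form of it. The sources used here do not give the promoter or line of the transgene, nor the age, sex or strain of the mice. Whole tissue was frozen and extracted, so fewer cells of a type and less RNA per cell cannot be told apart in any value given here.

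The 26S proteasome is built from a barrel-shaped 20S core and 19S regulatory particles at its ends. The outer alpha rings of the core gate the entrance, and the inner beta rings carry the proteolytic sites. The 19S base unfolds substrates with its ring of ATPases, the 19S lid removes the ubiquitin chains, and dedicated chaperones bring the parts together. Neurons depend on this machine to turn over synaptic and misfolded proteins, and the transcription factor NFE2L1 is known to raise the expression of its subunits together when proteolysis is impaired.

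All values are log2 expression levels, and differences are daDREAM minus wild type on that scale with 95% intervals. Over all probe sets, wild-type arrays correlated with each other at 0.989 to 0.997, daDREAM arrays at 0.973 to 0.990, and arrays of different genotype at 0.981 to 0.993. The interquartile range over all probe sets was narrowest on daDREAM replicate 3, at 2.97, and widest on daDREAM replicate 1, at 3.49. The 18 probe sets for the spiked hybridization controls averaged 9.15 ± 0.28 in wild type and 10.03 ± 0.51 in daDREAM (SD, n = 3 each). Kcnip3 itself differed by 0.10 (interval -0.27 to 0.46) on its brighter probe set, which does not check the genotype labels, since it is not known whether the transgene holds that sequence. Markers of granule cells, Purkinje cells, Bergmann glia and oligodendrocytes had list means of 9.80 or more on each array. All 10 choroid plexus markers had higher means in daDREAM, with list means of 5.56 to 5.76 on the wild-type arrays and 5.95 to 6.14 on the daDREAM arrays, and the part of this tissue in the members' values was not tested. Of all 18193 genes, 9317 had higher means in daDREAM. The share was smaller among bright genes, with 2690 of the 6932 that had a mean of at least 7. Only 1 of the 10 choroid plexus markers reached that level.

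No proteasome gene passed the test across all probe sets. In limma with Benjamini-Hochberg adjustment, 0 of the 45 genes had an adjusted p under 0.05, beside 0% of all probe sets tested, and the adjusted p of every member was 0.998. A single member, 2.22% of them, had an unadjusted p under 0.05, against 1.42% of all genes. It was higher in daDREAM, as were 0.951% of all genes at that threshold, and no member was lower, against 0.473% of all genes. The interval around a member's difference reached a median of 0.32 to either side, and the largest differences, -0.36 for Psmd12 and 0.34 for Psmb3, did not pass either.

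The members leaned slightly towards lower levels in daDREAM. Of the 45, 28 had a lower and 17 a higher mean in daDREAM, and the median difference was -0.06, a fold of 0.957. Of all genes, 48.8% were lower, with a median of 0.01. Bright genes as a whole leaned the same way. Of all 6932 genes with a mean level of at least 7, 61.2% were lower and the median was -0.04, while 26 of the 40 members above that level, 65%, were lower with a median of -0.07. The lean also rested on single arrays. The median was -0.01 without daDREAM replicate 3 and -0.12 without daDREAM replicate 1, and with the hybridization controls as a covariate it turned to 0.07, with 12 members lower.

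**Figure D1:**
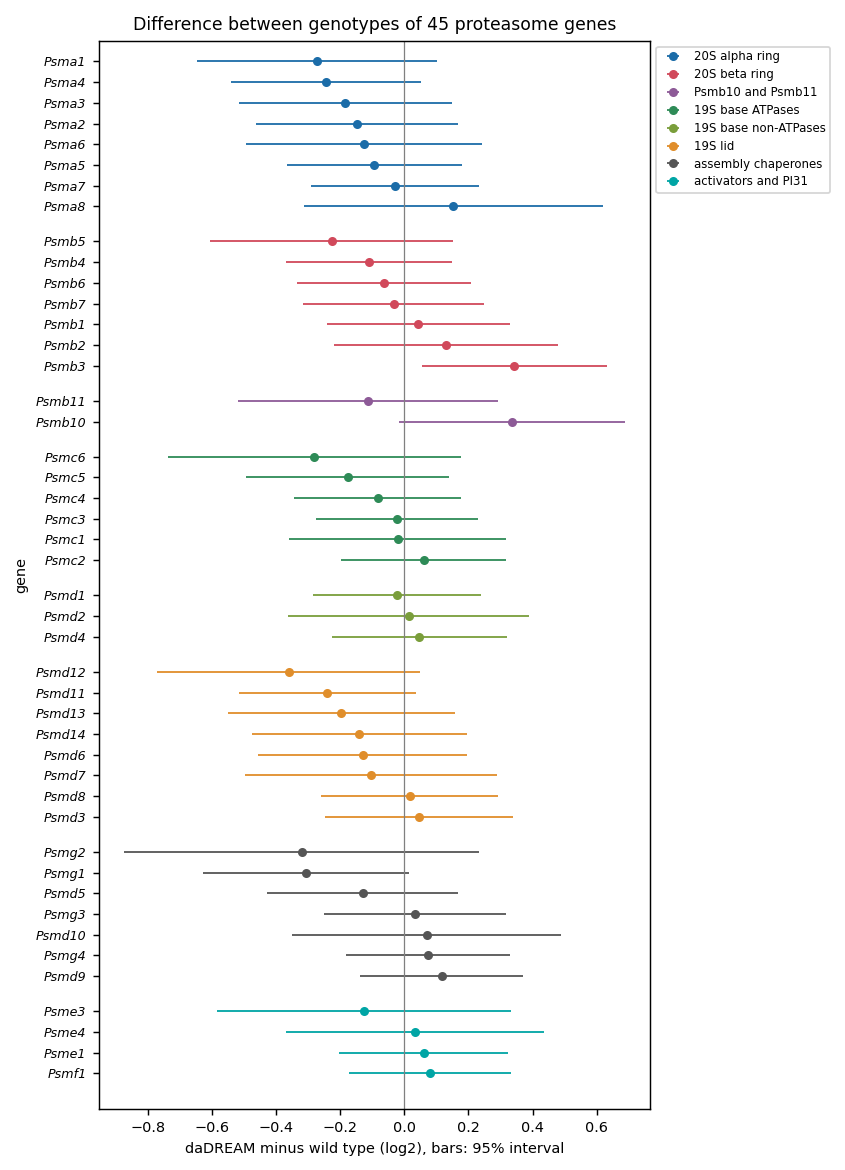
Difference in log2 expression, daDREAM minus wild type, of each of the 45 proteasome genes (points) with its 95% interval from limma (bars), grouped by role in the complex. The differences run from -0.36 for Psmd12 to 0.34 for Psmb3, and the interval of Psmb3 is the only one of the 45 that leaves out 0.

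Only 3 members had genotypes whose arrays did not overlap. Psma4 and Psmd11 were lower on all daDREAM arrays, 4.44% of members against 2.04% of all genes, and Psmb3 was higher on all of them, 2.22% against 3.55%. These shares rest on few genes and lie near those of all genes.

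Psmb3, a non-catalytic subunit of the beta ring, was the member with the smallest unadjusted p. Its level was 9.06, 8.92 and 9.12 on the wild-type arrays and 9.27, 9.34 and 9.52 on the daDREAM arrays. All daDREAM arrays lay above all wild-type arrays. The means were 9.03 ± 0.10 and 9.38 ± 0.13 (SD, n = 3 each), a difference of 0.34 (interval 0.06 to 0.63) or 1.27-fold. The unadjusted p was 0.0248 and the adjusted p 0.998 in limma. The other probe set of the gene read 8.57, 8.66 and 8.52 in wild type and 8.69, 8.67 and 8.54 in daDREAM. There the genotypes overlapped, and the difference was 0.05.

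Psma4, a subunit of the alpha ring, read 9.31, 9.48 and 9.34 in wild type and 9.28, 9.15 and 8.97 in daDREAM. The daDREAM arrays were all below the wild-type ones, though replicate 1 was only just so. The difference was -0.24 (interval -0.54 to 0.05), a fold of 0.845, with an unadjusted p of 0.0941. Psmd11, a scaffold subunit of the lid, read 10.45, 10.56 and 10.49 in wild type against 10.26, 10.39 and 10.13 in daDREAM. All its daDREAM arrays were lower, by a difference of -0.24 (interval -0.52 to 0.04). That probe set ends in _s_at, the mark for one that can match several transcripts. The other 7 probe sets of Psmd11 differed by -0.06 to 0.23, and the brightest of those without such an ending by -0.04.

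The 250 bases upstream of the start of these 3 genes, and of Psmd12, the gene with the largest difference, are shown because DREAM binds DNA at the core letters GTCA of its element. The sequences are the RefSeq strand of each gene on mouse build GRCm38.p6. Capitals mark every GTCA, its reverse complement TGAC, and CTTCCG or its reverse complement CGGAAG, a half-site of ETS factors.
Psma4, chr9:54950609-54950858, + strand: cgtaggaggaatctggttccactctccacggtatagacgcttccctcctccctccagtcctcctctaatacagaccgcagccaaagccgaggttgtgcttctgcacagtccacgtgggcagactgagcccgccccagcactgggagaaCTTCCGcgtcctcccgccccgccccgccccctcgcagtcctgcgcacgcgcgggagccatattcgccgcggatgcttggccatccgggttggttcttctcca
Psmd11, chr11:80428365-80428614, + strand: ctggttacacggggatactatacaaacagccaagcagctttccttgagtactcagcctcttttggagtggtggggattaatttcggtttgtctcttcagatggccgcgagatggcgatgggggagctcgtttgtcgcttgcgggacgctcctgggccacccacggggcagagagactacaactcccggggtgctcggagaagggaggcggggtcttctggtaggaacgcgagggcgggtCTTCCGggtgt
Psmb3, chr11:97703184-97703433, + strand: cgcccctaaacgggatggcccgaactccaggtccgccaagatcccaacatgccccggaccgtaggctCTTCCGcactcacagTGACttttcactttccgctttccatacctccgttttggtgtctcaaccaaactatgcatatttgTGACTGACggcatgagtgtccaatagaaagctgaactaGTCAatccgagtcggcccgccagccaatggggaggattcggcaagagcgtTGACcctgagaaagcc
Psmd12, chr11:107479278-107479527, + strand: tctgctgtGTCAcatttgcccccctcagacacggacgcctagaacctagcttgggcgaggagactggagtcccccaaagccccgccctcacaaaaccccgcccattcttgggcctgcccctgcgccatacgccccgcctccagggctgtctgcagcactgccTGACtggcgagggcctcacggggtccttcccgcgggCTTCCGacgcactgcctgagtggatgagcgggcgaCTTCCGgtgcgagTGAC

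Psma4 and Psmd11 hold no GTCA on either strand in this window, whereas Psmb3 holds 5 and Psmd12 holds 3. So short a motif is common, with a median of 2 matches per window among all windows and among those of members. It was found in 80.2% of all 32851 upstream windows of this length and in 33 of the 39 windows of members, 84.6%, which belong to 37 of the 45 genes. The antioxidant response element TGACNNNGC, the kind of element NFE2L1 binds with small MAF proteins, overlaps the GTCA core on the other strand. It was found in 5 of the 39 windows, 12.8%, against 10.2% of all windows, and the 5 belong to Psmb5, Psmb6, Psmc6, Psmd12 and Psmd9. CCAAT stood in 13 of 39 windows, 33.3%, against 33.8% of all. CTTCCG stood in 20 of 39, 51.3%, against 13.6% of all, including all 4 sequences shown. That motif was chosen after the sequences were seen, and base composition was not matched, so the share is only a description.

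For the catalytic subunits of the core the group means were close, except for Psmb5. Psmb6, the caspase-like site, read 9.19, 9.24 and 9.21 in wild type and 9.19, 9.25 and 9.01 in daDREAM, a difference of -0.06 (interval -0.33 to 0.21). Psmb7, the trypsin-like site, read 10.69, 10.87 and 10.62 against 10.75, 10.60 and 10.73, a difference of -0.03 (interval -0.31 to 0.25). For both genes the arrays of the genotypes interleaved, with daDREAM replicate 3 the lowest for Psmb6 and daDREAM replicate 2 the lowest for Psmb7. Psmb5, the chymotrypsin-like site, read 9.56, 9.68 and 9.50 in wild type and 9.53, 9.52 and 9.01 in daDREAM. Its difference of -0.23 (interval -0.60 to 0.15) came mostly from daDREAM replicate 3, and was -0.06 without it.

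Among the other beta-ring subunits, Psmb2 read 8.42, 8.53 and 8.11 in wild type and 8.30, 8.55 and 8.60 in daDREAM, overlapping groups with a difference of 0.13 (interval -0.22 to 0.48). Psmb1 and Psmb4 differed by 0.04 and -0.11. The beta ring as a list had 4 lower and 3 higher genes and a median of -0.03.

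Psmb10, the interferon-inducible relative that takes the place of Psmb7 in immunoproteasomes, leaned the other way. It read 7.25, 6.99 and 6.75 in wild type and 7.24, 7.46 and 7.30 in daDREAM. The groups touch only where wild-type replicate 1 lies just above daDREAM replicate 1. The means were 7.0 ± 0.25 and 7.33 ± 0.11 (SD, n = 3 each), a difference of 0.34 (interval -0.02 to 0.69) or 1.26-fold, with an unadjusted p of 0.0589. Immunoproteasome subunits are abundant in immune cells, and all 9 microglia markers measured also had higher means in daDREAM. Their list mean lay between 5.90 and 6.0 on the wild-type arrays and between 6.11 and 6.19 on the daDREAM arrays, and the part this has in the Psmb10 value was not tested. Of all 18193 genes, 9317 had higher means in daDREAM, and of the 6932 with a mean of at least 7, 2690 did. Only 2 of the 9 microglia markers reached that level. Psmb11, the thymus-restricted catalytic subunit, was dim here and differed by -0.11.

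The alpha ring leaned lower, with 7 of its 8 genes below wild type and a median of -0.14. Psma1 had the largest difference of the ring. It read 8.82, 9.06 and 8.76 in wild type and 8.88, 8.58 and 8.36 in daDREAM, a difference of -0.27 (interval -0.65 to 0.10), a fold of 0.827, that was -0.15 without daDREAM replicate 3 and -0.41 without replicate 1. daDREAM replicate 1 was among the wild-type arrays, and replicates 2 and 3 were below them. Psma2, Psma3, Psma5, Psma6 and Psma7 differed by -0.18 to -0.03, each with overlapping groups. Psma8, the testis-specific relative of Psma7, was dim at 3.73, 3.75 and 3.82 in wild type and 3.50, 3.91 and 4.35 in daDREAM. It was the only gene of the ring with a higher daDREAM mean, its difference was 0.15 (interval -0.31 to 0.62), and its daDREAM arrays lay on both sides of the wild-type ones.

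In the 19S base, 5 of the 6 ATPases had lower means, with a median of -0.05. Psmc6 was the lowest of them. It read 8.71, 8.92 and 8.54 in wild type and 8.82, 8.43 and 8.08 in daDREAM, a difference of -0.28 (interval -0.74 to 0.18) that was -0.098 without daDREAM replicate 3 and -0.47 without replicate 1. Its daDREAM arrays were spread from within the wild-type range to well below it, and the differences on its other probe sets were -0.09 and -0.12. Psmc1 to Psmc5 ranged from -0.18 to 0.06.

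The non-ATPase subunits of the base, which hold the ubiquitin receptors and the scaffold for shuttle proteins, had group means close to each other. Psmd2, the scaffold, read 10.12, 10.07 and 9.65 in wild type and 10.12, 9.97 and 9.79 in daDREAM, a difference of 0.01 (interval -0.36 to 0.39). Psmd4, a ubiquitin receptor, read 9.53, 9.51 and 9.36 against 9.61, 9.51 and 9.42, a difference of 0.05 (interval -0.23 to 0.32). Both genes had nearly the same range in the 2 groups, and Psmd1, the other large scaffold, differed by -0.02.

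The lid had 6 lower and 2 higher genes and a median of -0.14, and it held Psmd12, the member with the largest difference of all. Psmd12, a scaffold subunit, read 8.09, 8.18 and 7.91 in wild type and 7.98, 7.78 and 7.34 in daDREAM. daDREAM replicate 1 fell inside the wild-type range and replicates 2 and 3 below it. The means were 8.06 ± 0.14 and 7.70 ± 0.33 (SD, n = 3 each), a difference of -0.36 (interval -0.77 to 0.05) or a fold of 0.779, with an unadjusted p of 0.0777. It was -0.18 without daDREAM replicate 3. Psmd14, the deubiquitinase of the lid, read 9.98, 10.07 and 9.91 in wild type and 10.07, 9.87 and 9.60 in daDREAM, a difference of -0.14 (interval -0.48 to 0.20) that was -0.017 without daDREAM replicate 3 and -0.25 without replicate 1. Psmd3, Psmd6, Psmd7, Psmd8 and Psmd13 ranged from -0.20 to 0.05.

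The assembly chaperones went both ways, with 3 lower and 4 higher. Psmg1 and Psmg2 form the heterodimer on which alpha rings are assembled, and both had lower means. Psmg1 read 7.47, 7.44 and 7.19 in wild type and 7.25, 6.94 and 6.99 in daDREAM, a difference of -0.31 (interval -0.63 to 0.02), a fold of 0.809, with an unadjusted p of 0.0592. Psmg2 read 7.22, 7.19 and 6.80 in wild type and 7.24, 6.73 and 6.28 in daDREAM, a difference of -0.32 (interval -0.87 to 0.23) that was -0.085 without daDREAM replicate 3 and -0.565 without replicate 1. The genotypes overlapped for both genes, and the other probe sets of Psmg2 differed by -0.04 and 0.07. Psmd9, a chaperone of the base, read 6.71, 6.76 and 6.71 in wild type and 6.76, 6.86 and 6.91 in daDREAM, a difference of 0.12 (interval -0.14 to 0.37). Its daDREAM arrays reached from the top of the wild-type range upward, while its other probe sets differed by -0.02 and -0.18. Psmd5, Psmd10, Psmg3 and Psmg4 ranged from -0.13 to 0.07.

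The alternative activators and the inhibitor PI31 had small differences in their means, with 1 lower and 3 higher. Psme1, a subunit of the interferon-inducible activator PA28, read 7.45, 7.35 and 7.28 in wild type and 7.49, 7.41 and 7.36 in daDREAM, a difference of 0.06 (interval -0.20 to 0.32). Psmf1, which encodes PI31, read 7.72, 7.68 and 7.72 against 7.72, 7.86 and 7.78, a difference of 0.08 (interval -0.17 to 0.33). Both groups overlapped or touched for each gene. Psme3, the nuclear PA28 gamma, read 8.60, 8.65 and 8.08 in wild type and 8.61, 8.27 and 8.07 in daDREAM, a difference of -0.13 (interval -0.58 to 0.33). Psme4, the activator PA200, differed in its spread more than in its mean. It read 8.11, 8.13 and 8.09 in wild type and 8.50, 8.12 and 7.81 in daDREAM, so the SD was 0.02 in wild type and 0.35 in daDREAM while the difference was 0.03 (interval -0.37 to 0.44). On its next brightest probe set the SDs were 0.14 and 0.34. Larger daDREAM SDs were seen for Psmg2, Psma8 and Psmc6, at 0.48, 0.43 and 0.37.

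Wider spread in daDREAM was the rule among the members. In 33 of the 45 the SD over the daDREAM arrays was larger than over the wild-type arrays, and the median SD was 0.16 against 0.09. The same held for 71.4% of all genes. The members' levels also sorted by array. Relative to each gene's wild-type mean, the median over the 45 genes was -0.01, 0.05 and -0.06 on the wild-type arrays and 0.01, -0.03 and -0.18 on the daDREAM arrays. Of these, daDREAM replicate 3 lay farthest from 0. It was the lowest of the 6 arrays for 23 members, 51.1%, against 27.2% of all genes. Among genes with a mean of at least 7, the shares were 22 of 40 members, 55%, and 48.9% of all such genes.

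**Figure D2:**
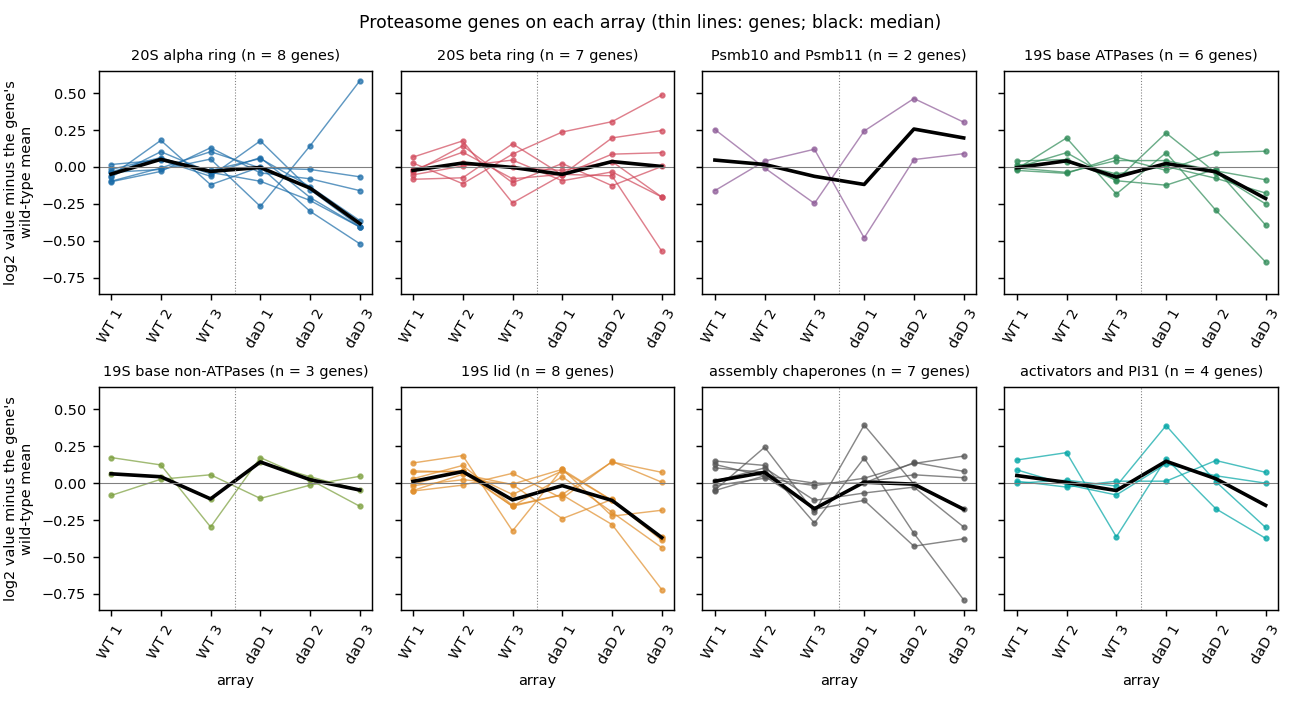
Log2 expression of each of the 45 proteasome genes minus its mean over the 3 wild-type arrays (y axis), on each array (x axis, WT for wild type and daD for daDREAM), in 1 panel per role, with thin lines for genes and a black line for their median. The alpha ring, the ATPases and the lid drop to medians of -0.38, -0.21 and -0.37 on daDREAM replicate 3, while the beta ring, whose genes go both ways there, has a median of 0.00.

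The parts of the complex were not all lower on that array to the same degree. On daDREAM replicate 3 the median deviation from the wild-type mean was -0.38 for the alpha ring, -0.37 for the lid and -0.21 for the ATPases, but 0.00 for the beta ring. The beta-ring genes went both ways on that array. Psmb5 read 9.01 there against a wild-type mean of 9.58, and Psmb3 read 9.52 against 9.03. It was the lowest array for 6 of 8 alpha-ring genes, 5 of 6 ATPases and 5 of 8 lid genes. The numbers were 3 of 7 in the beta ring, 2 of 7 chaperones, 2 of 4 activators and 0 of 3 non-ATPase base subunits. For Psmb10 and Psmb11 it was 0 of 2. daDREAM replicate 1, of the same genotype, had medians of -0.00, -0.02 and 0.02 for the alpha ring, the lid and the ATPases, close to the wild-type mean. Among the 40 members with a mean of at least 7, 29 were higher on daDREAM replicate 1 than on replicate 3, 72.5%, against 77.3% of all genes above that level. Since the medians of these parts compare single arrays and rest on 6 to 8 genes each, they have no test.

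**Figure D3:**
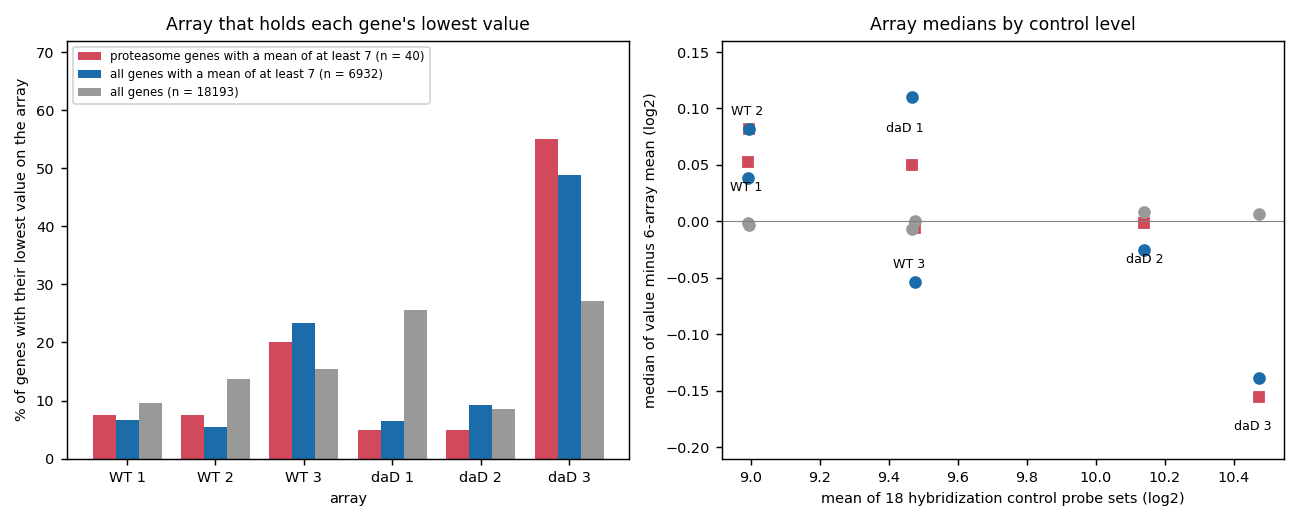
Left, the percent of genes that had their lowest value on each array (WT for wild type, daD for daDREAM), for the 40 proteasome genes with a mean of at least 7 (red), all 6932 genes above that level (blue) and all genes (grey). Right, the median over the same sets and colours of the log2 value minus the mean of all arrays, against the mean level of the 18 hybridization control probe sets on that array. On daDREAM replicate 3 the bright members sit at -0.16 and all bright genes at -0.14, and on daDREAM replicate 1 at 0.05 and 0.11.

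Probe sets of the same gene often disagreed in sign. Of the 25 members with several probe sets, 12 had differences of 1 sign throughout and 13 did not, and the median spread between a gene's probe sets was 0.25. All probe sets were lower in daDREAM for Psma1, Psma3, Psma7, Psmb4, Psmc1, Psmc4, Psmc6, Psmd6 and Psmd13, and all higher for Psmb3, Psmd2 and Psmg4. Over the 97 probe sets 60 were lower and 37 higher, with a median of -0.04, beside 48.1% lower among all probe sets. Just 2 of the 97, 2.06%, had an unadjusted p under 0.05, against 1.81% of all probe sets, and no member had probe sets past it in both directions. The largest difference of any of them, picked out after its values were seen, was -0.80 on the dimmer probe set of Psmd6. There daDREAM replicate 2 alone read 3.69, with the other arrays between 5.71 and 6.06.

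**Figure D4:**
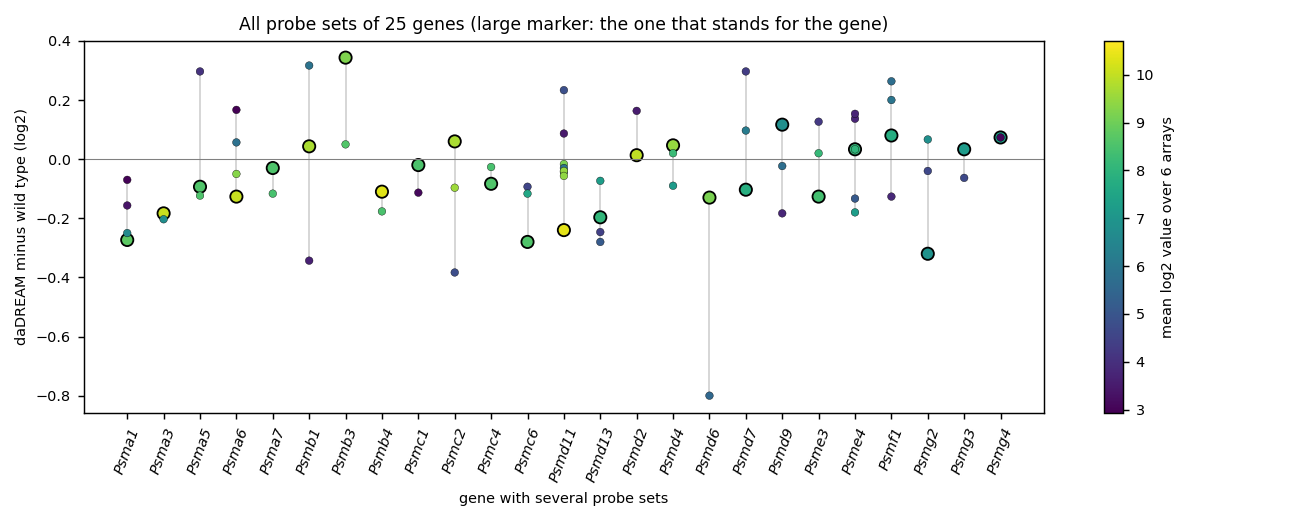
Difference in log2 expression, daDREAM minus wild type, (y axis) of every probe set of the 25 proteasome genes that have more than 1 (x axis), coloured by mean log2 level, with a large marker for the probe set that stands for the gene. For 13 of the 25 genes the points lie on both sides of 0.

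Genes that act with the proteasome leaned the same way and also did not pass. Of 30 partner genes measured, 21 had lower and 9 higher means in daDREAM, the median was -0.11, and 0 had an unadjusted p under 0.05 in limma, against 1.42% of all genes. Of all genes 48.8% were lower, and 61.2% of those with a mean of at least 7, where 26 of the 30 partners lie. The median moved to 0.00 without daDREAM replicate 3, to -0.22 without daDREAM replicate 1 and to 0.22 with the hybridization controls as a covariate. Usp14, the deubiquitinase that trims chains on the proteasome, read 8.55, 8.51 and 8.19 in wild type and 8.38, 7.93 and 7.69 in daDREAM. Its groups overlapped at daDREAM replicate 1, and its difference was -0.42 (interval -0.86 to 0.03), a fold of 0.749, with an unadjusted p of 0.0634. Uchl5, the other deubiquitinase that binds the 19S particle, read 8.43, 8.72 and 8.51 in wild type and 8.67, 8.46 and 7.77 in daDREAM. Its difference of -0.25 (interval -0.77 to 0.27) came from daDREAM replicate 3 and was 0.01 without it. Pomp, the maturation factor of the core, read 9.89, 9.94 and 9.75 in wild type and 9.86, 9.81 and 9.88 in daDREAM, all within the wild-type range, a difference of -0.01 (interval -0.27 to 0.25).

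Among the transcription factors, Nfe2l1 read 8.80, 8.76 and 8.27 in wild type and 8.51, 8.56 and 8.43 in daDREAM, within the wild-type range and with a difference of -0.11 (interval -0.48 to 0.26). Mafk, a small MAF protein that pairs with it, had the largest difference of the 6 genes in that list, 0.28 (interval -0.32 to 0.88). It read 7.29, 7.34 and 7.68 in wild type and 7.09, 8.07 and 7.99 in daDREAM, so daDREAM replicate 1 was the lowest array of all and the other daDREAM arrays the highest. Of the 11 shuttle and segregase genes, which carry or extract ubiquitinated substrates, 8 were lower. Rad23b, a shuttle, was the lowest of them at -0.37 (interval -0.81 to 0.07), reading 9.43, 9.61 and 9.13 in wild type and 9.36, 8.96 and 8.75 in daDREAM. Uba6, a ubiquitin-activating enzyme, ranged so widely within wild type, from 6.27 to 7.80, that its difference of -0.23 had an interval of -1.13 to 0.68.

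Leaving out each array in turn kept the sign of 29 of the 45 genes. Over those and all other alternatives but the hybridization control covariate, 24 genes kept their sign, 17 lower and 7 higher. That covariate, which itself differs between the genotypes, alone turned 24 genes, and with it 10 were left. These were Psma4, Psmb4, Psmd11 and Psmg1, lower, and Psmb2, Psmb3, Psmb10, Psme1, Psmf1 and Psmg4, higher. Several of them came close to 0 with the covariate, at -0.0036 for Psmg1, -0.025 for Psma4, 0.0069 for Psmg4 and 0.017 for Psmf1. Psmb3 was then 0.14, with an unadjusted p of 0.395 in limma. None of the 45 passed the adjusted threshold in limma under any of these alternatives. Kept signs were counted for the members only, so these counts cannot be set against those of all genes.

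**Figure D5:**
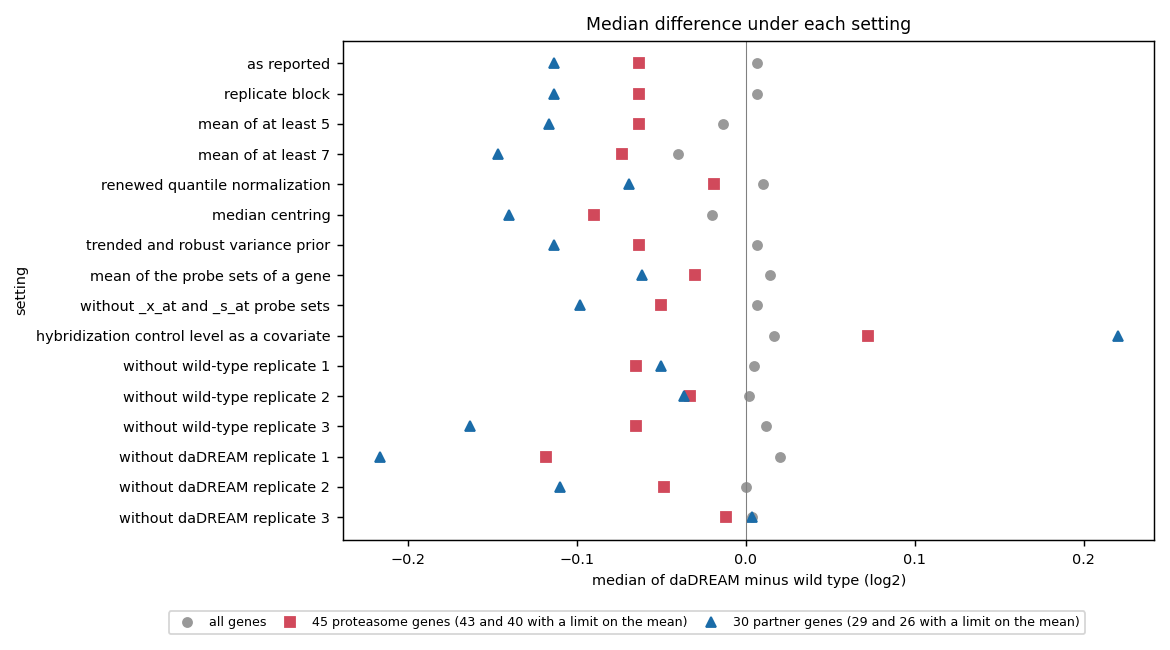
Median difference in log2 expression, daDREAM minus wild type (x axis), of the proteasome genes (red squares), the partner genes (blue triangles) and all genes (grey circles) under each processing alternative (y axis). For the proteasome genes the median is -0.06 as reported, runs from -0.12 to -0.01 when 1 array is left out, and reaches 0.07 with the hybridization controls as a covariate.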

How the data were processed

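The deposited log2 values are 1 per probe set and array, made by the authors with RMA in the affy package per the submitters' processing notes, with versions not given in the sources used here. RMA equalises probe intensities across arrays before summarising them, so a shift common to most genes may not show and dim probe sets are compressed, though the summarised values still differ in spread between arrays. No detection call was used here. Per the labels, RNA quality was assessed before labelling. No test included the 64 control probe sets. Genes were named from the platform annotation by probe sets with 1 symbol, and all 45 members were found in the RefSeq gene table.

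Groups were compared in limma 3.58.1 (R 4.3.3) with lmFit and eBayes, 2-sided, with Benjamini-Hochberg adjustment over 45037 probe sets. The fit was tested on simulated data with noise independent between arrays and added differences larger than that of any member. That check does not speak to differences of the size found here. The number of arrays limits the precision. Members, partner lists and marker lists were chosen with earlier results of these data known, so lists are given by counts and medians without a test. Named with values were the catalytic subunits, the member of each structural list with the largest difference, up to 6 members per direction with the smallest unadjusted p, subunits with a known single function, and in the partner lists Pomp, Nfe2l1, Usp14, Uchl5 and the largest difference of each list. The differences of Psmb1, Psmb4, Psmb11 and Psmd1 were also given singly. Alternatives were the replicate block, a trended and robust prior, median centring, renewed quantile normalization, floors of 5 and 7 on a gene's mean, other choices of probe set, the hybridization control level as a covariate, and leaving out each array. Upstream windows come from RefSeq on GRCm38.p6.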

Additional observations from a re-analysis of the deposited data

How the results depend on the processing

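The count of members past the adjusted threshold was 0 under every alternative. Once the hybridization control level was a covariate, which differs between the genotypes, 12 members and 5 partners were lower, the medians were 0.072 and 0.22, and 8 members had an unadjusted p under 0.05, against 24.3% of all genes. In that fit 24 of the 45 members turned sign. No count of turned signs was taken over all genes. Among genes whose gene-level difference is given singly above, partners included, the sign turned for Psmb1 (-0.16), Psmb5 (0.12), Psmb6 (0.033), Psmb7 (0.065), Psma1 (0.14), Psme3 (0.46), Psmg2 (0.47), Psmc6 (0.31), Psmd12 (0.13), Psma8 (-0.42), Psmd14 (0.20), Pomp (0.054), Nfe2l1 (0.14), Usp14 (0.18), Uchl5 (0.32), Rad23b (0.20), Mafk (-0.53), Uba6 (0.91) and Kcnip3 (-0.30). The cause was not tested. With the mean of a gene's probe sets 8 members turned, of which Psme3 was 0.0067, Psmd4 -0.0078 and Psmd9 -0.03. Median centring turned 2 members, among them Psmd2 (-0.013). Renewed quantile normalization turned 4, among them Psmd1 (0.019), and the partner Pomp (0.034). The count of members with an unadjusted p under 0.05, 1 as reported, was 4 after renewed quantile normalization, 2 with the trended and robust prior and 2 with the mean of probe sets, against 2.63%, 1.43% and 1.85% of all genes.

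The replicate numbers are not stated to pair animals. Deviations of same-numbered arrays correlated at 0.119, -0.281 and 0.323. Across genotypes, 2 wild-type arrays and 1 daDREAM array correlated best with the array of their own number, which does not settle whether the arrays are paired. The replicate block gave 2 members with an unadjusted p under 0.05, against 2.08% of all genes, and left the 28 lower members and the median of -0.06 as they were. Leaving out 1 array gave 0 to 10 such members, the most without daDREAM replicate 1, where 16.5% of all genes had such a p. It gave 25 to 31 members lower with medians of -0.12 to -0.01, and 14 to 23 partners lower with medians of -0.22 to 0.00. The differences then ranged from -0.065 to 0.03 for Pomp, -0.062 to 0.36 for Psma8, -0.11 to 0.0067 for Psmb6, -0.087 to 0.038 for Psmb7, -0.14 to 0.10 for Psmd2, -0.0067 to 0.093 for Psmd4, -0.15 to 0.20 for Psme4, -0.69 to 0.075 for Uba6 and -0.44 to 0.012 for Uchl5.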
